A study of Mus musculus with 4 samples.

Results

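Skeletal muscle breaks down its own proteins through ubiquitin ligases, enzymes that attach ubiquitin to a protein and so mark it for the proteasome. The 9 genes described here are 5 such ligases that are known from muscle wasting and the 4 Foxo transcription factors of the mouse. The ligases are Fbxo30, Fbxo32, Trim63, Fbxo21 and Fbxo40, and the factors are Foxo1, Foxo3, Foxo4 and Foxo6. They were taken by gene name from a table of 55267 entries, and each name matched 1 entry. The rule used names only, with no threshold on level or change.

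RNA-seq was performed on muscle stem cells (MuSCs) in culture, the source of new fibers in regenerating muscle. All cells came from muscles of the limbs, back and breast of female mice aged 9 weeks, of genotype C57BL/6N(Tg(Pax7-EGFP)Tajb), and had been sorted for the Pax7-driven green reporter after 1 day of culture. They were cultured for a further 2 days and then kept for 6 h without serum in 200 ng/mL of a soluble BMP receptor (BMPR1A-Fc), which binds BMPs left over in the medium. The BMP6 group then received 100 ng/mL BMP6 for 1 h, and the control group received vehicle (4 mM HCl with 0.1% BSA) for the same time. Each group had 2 libraries labelled as biological replicates, and, per the labels, 1 BMP6 and 1 control library share each replicate number as a batch. Whether a replicate number stands for 1 mouse or a pool of mice is not given in the sources used here.

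In muscle, Foxo factors in the nucleus switch on Fbxo32 and Trim63, and Akt kinase keeps Foxo factors out of the nucleus by phosphorylating them. BMP signaling acts through SMAD1, SMAD5, SMAD9 and SMAD4 and is known to restrain wasting in muscle fibers. Fbxo30, also called MUSA1, is the ligase best known for being held down by BMP signaling in denervated muscle. Fbxo32 (atrogin, or MAFbx), Fbxo30, Fbxo21 (SMART) and Fbxo40 are F-box proteins, which bring substrates to a cullin complex. Trim63 (MuRF1) is a RING-finger ligase of the sarcomere. The question asked of these libraries was whether the transcripts of these genes differed after 1 h of BMP6.

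The sequence just before the transcript start was read for each gene, since Foxo factors and Smad proteins act through short DNA elements. The window covered 250 bases before the start of the transcript with the highest TPM (reads per transcript length, scaled to a fixed total per library) and was searched on both strands. The Foxo element GTAAACA was found in 1 of the 9 windows, that of Trim63, and in 2.26% of 13126 windows of tested entries. It starts 194 bases before the transcript start. The Trim63 window also holds the E-box CAGCTG, a site type of myogenic factors, 72 bases before the start. Trim63 is shown here because it holds the Foxo element, as the part of its window before any annotated exon, on the plus strand at chr4:134042181-134042392 (GRCm39). The capitals mark the Foxo element, in its reverse complement, and then the E-box.

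Trim63: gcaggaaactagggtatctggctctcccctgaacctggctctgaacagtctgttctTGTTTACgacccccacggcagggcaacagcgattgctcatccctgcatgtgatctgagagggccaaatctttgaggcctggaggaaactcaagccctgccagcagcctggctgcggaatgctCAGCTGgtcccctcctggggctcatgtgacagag

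The GC-rich Smad element GGCGCC was found in 2 of the 9 windows and in 15.3% of the windows of tested entries. Fbxo32 holds it once, 64 bases before its start, and Foxo6 holds it 3 times, at 229, 34 and 15 bases. In both genes annotated exons cover all 250 bases of the window, so these elements lie in annotated exon sequence. The Fbxo30 window, which does not hold this element, is also covered by annotated exons over all 250 bases. The Fbxo32 element lies in these 30 bases on the minus strand at chr15:58078375-58078404 (GRCm39), with the element in capitals.

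Fbxo32: gcgagagccgcgGGCGCCtcggaaaacaag

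The palindromic Smad element GTCTAGAC was in 0 of the 9 windows and in 0.251% of all windows. The E-box was in 2 of the 9 windows, those of Trim63 and Fbxo40, and in 11.9% of all windows. The Foxo1 window held none of the 4 motifs and is shown for contrast, on the plus strand at chr3:52175507-52175756 (GRCm39).

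Foxo1: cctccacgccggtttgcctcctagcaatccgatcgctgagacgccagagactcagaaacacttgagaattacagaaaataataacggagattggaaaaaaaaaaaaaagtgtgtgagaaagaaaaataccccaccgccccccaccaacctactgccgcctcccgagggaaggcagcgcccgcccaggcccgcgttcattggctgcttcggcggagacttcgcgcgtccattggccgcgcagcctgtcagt

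A match of letters is a description of the window and says nothing about binding. These windows cover only the nearest bases, and sites farther away were not searched.

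Depth, the labelled cell type and the response to BMP6 were checked first. Read numbers rebuilt from coverage were 108 to 112 in units of 1000000 per library. The myogenic markers were present, with Pax7 at a mean of 10.1 TPM over the 4 libraries, Myod1 at 601 TPM and Myog, a marker of differentiating myocytes, at 4831 TPM. Markers of MuSCs and myoblasts summed to 1990 to 2449 TPM per library. Those of differentiating myocytes summed to 19701 to 21689 TPM, led by Acta1 at a mean of 11582 TPM. Those of mature myofibres summed to 420 to 443 TPM. All endothelial markers together came to at most 0.298 TPM in any library, with Kdr at 0 in all 4, and the 4 immune markers together came to 1.169 to 1.80 TPM, most of it Cd68. Fibroblast markers summed to 105 to 174 TPM, almost all of it Col3a1 and Col1a1. The means of Dcn, Lum and Pdgfra were 1.41, 0.139 and 0.114 TPM. The BMP target genes of the reference list were higher after BMP6. This list was chosen with earlier results of these data known, so it is no independent check of the response. All 10 were higher in every BMP6 library than in either control, and 9 of them were past the test described below, with a median log2 fold change of 2.02.

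Fbxo30 was the most abundant of the 9 genes. Its transcript (chr10:11157074-11173796) reached 31.7 TPM in BMP6 replicate 1 and 47.3 TPM in BMP6 replicate 2, and its controls had 35.2 and 49.8 TPM in the same order, which is kept below. In both groups replicate 2 was the higher library, and the ranges of the groups overlapped. The BMP6 libraries averaged 39.5 ± 11.03 TPM, and the controls averaged 42.5 ± 10.4 TPM (SD, n = 2 each).

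Fbxo32, the F-box ligase that targets MyoD and translation factors (chr15:58039275-58078328), was at 6.57 and 5.65 TPM after BMP6 and at 7.75 and 7.25 TPM in controls. Both BMP6 libraries lay below both controls. The group means were 6.11 ± 0.654 TPM and 7.50 ± 0.358 TPM (SD, n = 2 each). Its relative Fbxo25, an F-box gene of the same subfamily, had 21.0 and 18.2 TPM after BMP6 and 20.3 and 20.4 TPM in controls, so the more abundant relative overlapped between the groups.

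Trim63 (chr4:134042431-134056940) was at 9.79 and 11.1 TPM after BMP6 and at 11.2 and 12.7 TPM in controls. The lower control exceeded the higher BMP6 library by little, and the groups did not overlap. The means were 10.4 ± 0.925 TPM and 11.9 ± 1.08 TPM (SD, n = 2 each). Its relatives Trim55 (MuRF2), with a mean of 25.4 TPM over the 4 libraries, and Trim54 (MuRF3), with 94.3 TPM, were both more abundant and had log2 fold changes of -0.06 and -0.06 (limma, adjusted p = 1.00 each).

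Fbxo21 (chr5:118114795-118148266) was at 11.1 and 10.7 TPM after BMP6 and at 11.8 and 9.17 TPM in controls. The BMP6 libraries lay between the controls. Fbxo40 (chr16:36783822-36810829), a ligase of the insulin receptor substrate in mature muscle, was close to absent, with 0.185 and 0.157 TPM after BMP6 and 0.141 and 0.239 TPM in controls. It stayed below the mean of 1 TPM needed for the test.

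Foxo1 (chr3:52175757-52260642), a factor that activates Fbxo32 and Trim63 in wasting muscle, was at 8.05 and 6.40 TPM after BMP6 and at 6.30 and 5.53 TPM in controls. Both BMP6 libraries were above both controls, but the lower BMP6 library exceeded the higher control by little. The means were 7.23 ± 1.167 TPM and 5.92 ± 0.538 TPM (SD, n = 2 each).

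Foxo3 (chr10:42057837-42152751), which also drives autophagy genes in muscle, was at 3.44 and 2.69 TPM after BMP6 and at 3.60 and 2.76 TPM in controls. Replicate 1 was the higher library in both groups. Foxo6 (chr4:120124276-120144546), known mostly from the brain, was at 0.758 and 1.53 TPM after BMP6 and at 0.812 and 1.11 TPM in controls, with replicate 2 the higher library in both. Foxo4 (chrX:100298134-100304479) was at 0.149 and 0.152 TPM after BMP6 and at 0.171 and 0.318 TPM in controls, and was too low to be tested.

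**Figure D1:**
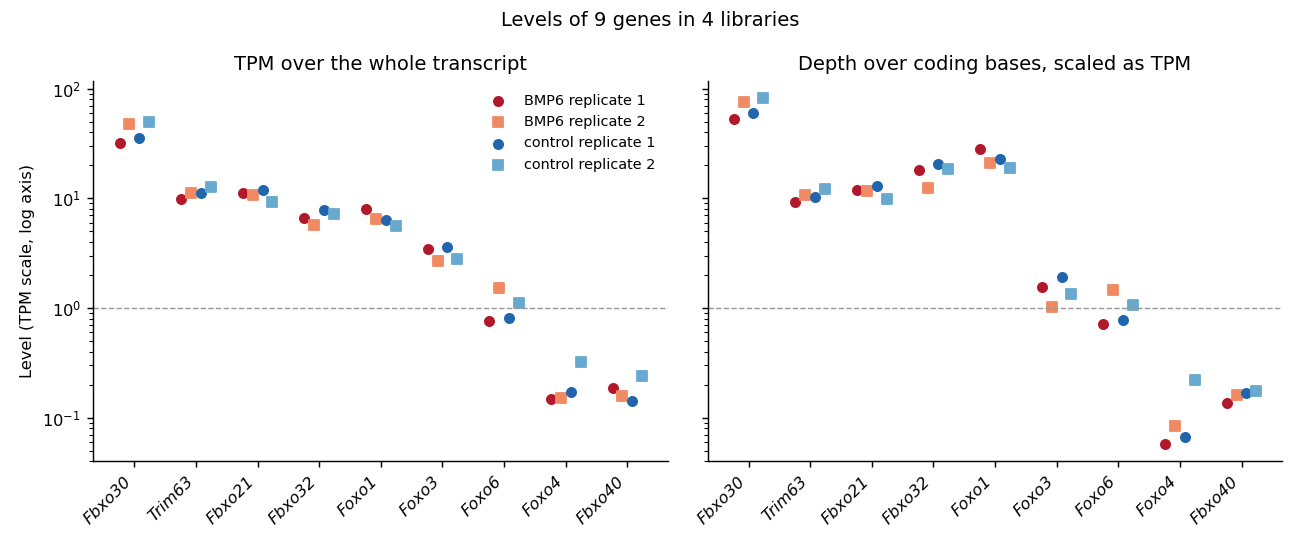
Level of each gene in each library on the TPM scale (log axis), over the whole transcript (left) and over coding bases (right). On the right, the mean depth of each whole exon was weighted by its coding bases and summed over transcripts. Circles are replicates 1, squares are replicates 2, red is BMP6, blue is control, and the dashed line is the mean of 1 TPM required for the test. The libraries of a gene lie close together compared with the distance from Fbxo30 (31.7 to 49.8 TPM) to Fbxo40 (0.141 to 0.239 TPM), and Foxo1 and Fbxo32 move up in the right panel.

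By mean TPM over the 4 libraries the order was Fbxo30 (41.0), Trim63 (11.2), Fbxo21 (10.7), Fbxo32 (6.81), Foxo1 (6.57), Foxo3 (3.12), Foxo6 (1.05), Foxo4 (0.197) and Fbxo40 (0.181). The ranges over the libraries overlapped for 3 neighbouring pairs, namely Trim63 with Fbxo21, Fbxo32 with Foxo1, and Foxo4 with Fbxo40. The other 5 neighbouring pairs did not overlap, and the widest step between tested genes was from Fbxo30 to Trim63, with a ratio of means of 3.67. Among all 13128 tested entries, 72.6% had a lower mean than Fbxo30 and 21.3% had a lower mean than Foxo3. Thus 7 of the 9 genes could be tested.

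The test was limma on log2(TPM + 1) across all entries with a mean of at least 1 TPM, and a gene was past it with an adjusted p under 0.1. None of the 7 tested genes was past it, and each had an adjusted p of 1.00. At an unadjusted p under 0.05, 0 of the 7 passed. Among all tested entries 0.244% were past the adjusted p, and 3.20% had an unadjusted p under 0.05. There are 3 ways to divide 4 libraries into 2 groups of 2, and the smallest p of an exact permutation test over these samples is 0.333.

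Among the ligases the largest difference was that of Fbxo32, with a log2 fold change of -0.26 (SE 0.14, 95% interval -0.61 to 0.09). The values within the pairs of same-numbered libraries were -0.21 and -0.31. Trim63 followed with -0.18 (SE 0.14, interval -0.51 to 0.16) and nearly equal within-pair values of -0.18 and -0.18. Fbxo30 was at -0.11 (SE 0.24, interval -0.69 to 0.47), with -0.14 and -0.07 within the pairs. Fbxo21 was at 0.06 (SE 0.15, interval -0.32 to 0.44), and its pairs pointed in opposite directions, with -0.09 and 0.20.

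Among the Foxo factors the largest difference was that of Foxo1, with a log2 fold change of 0.25 (SE 0.16, 95% interval -0.15 to 0.64) and within-pair values of 0.31 and 0.18. Foxo3 was at -0.04 (SE 0.18, interval -0.48 to 0.40), and Foxo6 was at 0.11 (SE 0.22, interval -0.43 to 0.65) with pairs of opposite sign. For all 7 genes the interval lay inside a 2-fold change of TPM + 1 in either direction. For 3 of them, Trim63, Fbxo21 and Foxo3, it lay inside a 1.5-fold change. The widest interval was that of Fbxo30, from 0.621-fold to 1.38-fold. Adding 1 to TPM understates changes of low genes, so for Foxo3 and Foxo6 these intervals do not bound the change of TPM itself. With 0.1 added in place of 1, the SE was 0.23 for Foxo3 and 0.39 for Foxo6.

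**Figure D2:**
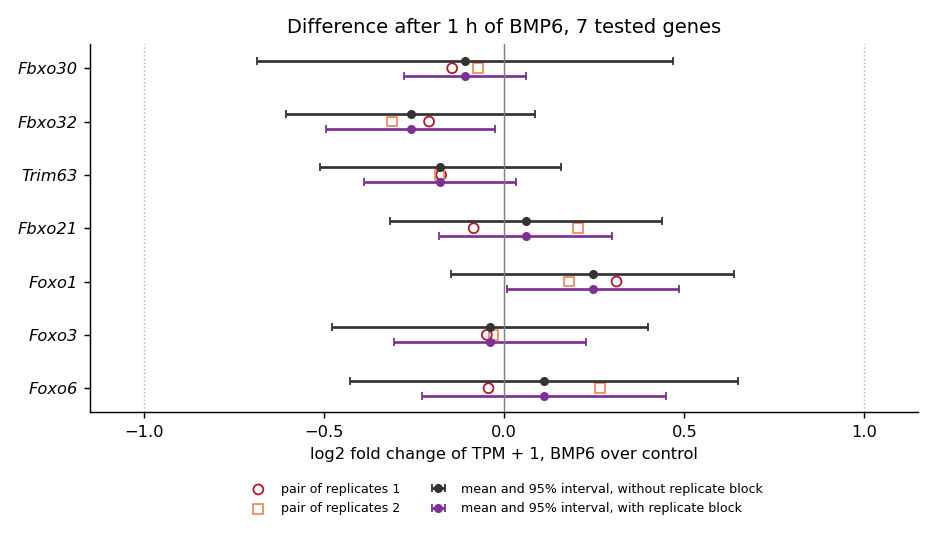
log2 fold change of TPM + 1 (BMP6 over control) for the 7 tested genes. Filled points and bars are the mean and its 95% interval in limma without (black) and with (purple) the replicate block, open symbols are the pairs of same-numbered libraries, and dotted lines mark a 2-fold change. Every interval lies between the dotted lines. The black intervals all cross 0, and the purple ones of Fbxo32 and Foxo1 do not.

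Same-numbered libraries are paired by batch, and a fit with the replicate as a block narrowed the intervals. With the replicate block again 0 of the 7 genes were past the test, beside 1.64% of all entries, and the lowest adjusted p was that of Fbxo32, 0.348. At an unadjusted p under 0.05 the block gave 2 of 7, beside 12.9% of all entries. These were Fbxo32 (unadjusted p = 0.0334 and adjusted p = 0.348 in limma) and Foxo1 (unadjusted p = 0.0442 and adjusted p = 0.374 in limma). In this fit the intervals of all 7 genes lay inside a 1.5-fold change of TPM + 1. On rebuilt reads, voom also had 0 genes past the adjusted p, and at an unadjusted p under 0.05 it had 0 without and 2 with the block. Shares over all entries are given here for limma on TPM only, so these voom counts have none beside them.

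Both BMP6 libraries were below both controls for 2 of the 7 genes, Fbxo32 and Trim63, and for 11.6% of all tested entries. Both were above both controls for 1 gene, Foxo1, and for 16.6% of all tested entries. In 4 of the 7 genes, namely Fbxo30, Fbxo32, Trim63 and Foxo3, the level was lower after BMP6 in both pairs, beside 25.7% of all entries. In 1 gene, Foxo1, it was higher in both pairs, beside 35.0% of all entries. The median log2 fold change of the 7 genes was -0.04, and that of all tested entries was 0.02. In bulk RNA, fewer cells of a type and less RNA per cell cannot be told apart.

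Markers of differentiating myocytes, a stage at which Trim63 and Fbxo32 are expressed, were read beside these values. Of 9 such markers, 7 had a log2 fold change below 0, 0 were past the test with or without the block, and the median was -0.06. At an unadjusted p under 0.05, 1 of the 9 was lower, namely Myh3 (limma log2 fold change -0.20, adjusted p = 1.00). Their summed level was 19701 to 21184 TPM after BMP6 and 20724 to 21689 TPM in controls, so the ranges overlapped. Of 9 markers of MuSCs and myoblasts, 0 were past the test without the block (limma, 1 at an unadjusted p under 0.05), and with it Cxcr4 was higher (adjusted p = 0.0143) and Des was lower (adjusted p = 0.0312). The 4 markers of pericytes or smooth muscle summed to 2912 to 2952 TPM after BMP6 and 3105 to 3256 TPM in controls, almost all of it Acta2, while Myh11 was at most 0.0239 TPM. Acta2 had a log2 fold change of -0.12 (limma, adjusted p = 1.00). The part of these markers in the values of Fbxo32, Trim63 and Foxo1 was not tested.

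The reads were spread unevenly over several of these transcripts, which bears on the levels given above. Exon depth is given here on the TPM scale, as mean coverage of the exon multiplied by the ratio of total TPM to total coverage of the library. In Foxo1, exon 2, which holds 1338 of the 1959 coding bases, had a depth of 37.6 and 28.1 after BMP6 and 30.9 and 25.5 in controls. Its last exon, exon 3, has 6226 bases and no coding bases, and had a depth of 1.80 and 1.92 after BMP6 and 0.992 and 1.34 in controls. That long exon is 71.9% of the transcript length over which the TPM of Foxo1 is averaged. In the last exon both BMP6 libraries were above both controls, whereas in exons 1 and 2 the groups overlapped.

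In Fbxo32 the last exon takes 81.4% of the transcript, and 90 of its 5677 bases are coding. Its depth was 4.38 and 4.37 after BMP6 and 5.32 and 5.04 in controls. Exon 6, the deepest, had 23.2 and 13.7 after BMP6 and 26.5 and 22.3 in controls. All 9 exons of Fbxo32 were lower after BMP6 in both pairs, and in 6 of them the groups did not overlap. The exons share their reads' source and are not separate observations. In the coding exons BMP6 replicate 2 was the low library, and in the last exon the BMP6 libraries were alike.

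Trim63 was covered more evenly, with a mean depth of 6.49 in exon 1 and between 8.76 and 12.8 in the other 8 exons. In 6 of its 9 exons both pairs were lower after BMP6, and in 4 the groups did not overlap. Fbxo30 had a depth of 71.7 in exon 2, which carries 2037 of its 2241 coding bases, and 20.3 in the last exon, as means over the 4 libraries. In exon 2 the values were 56.4 and 81.2 after BMP6 and 63.7 and 85.4 in controls, and the groups overlapped as they did for the gene.

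Foxo3 showed the opposite distribution. Its last exon, without coding bases, had a mean depth of 3.02, and exon 3, which holds most of the coding bases, had 0.449. Foxo3 reads were also split between the leading transcript, with 62.2% to 78.2% of the gene's TPM, and a shorter one of 1316 bases, with 21.8% to 37.5%. The shorter share was highest in control replicate 1. Fbxo21 was likewise split, with 56.9% to 68.8% on its leading transcript, and the second transcript was highest in control replicate 1 at 43.1%. In both genes the leading transcript's share was therefore lowest in that library. The other 7 genes had at least 98.1% of their TPM on 1 transcript in every library.

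**Figure D3:**
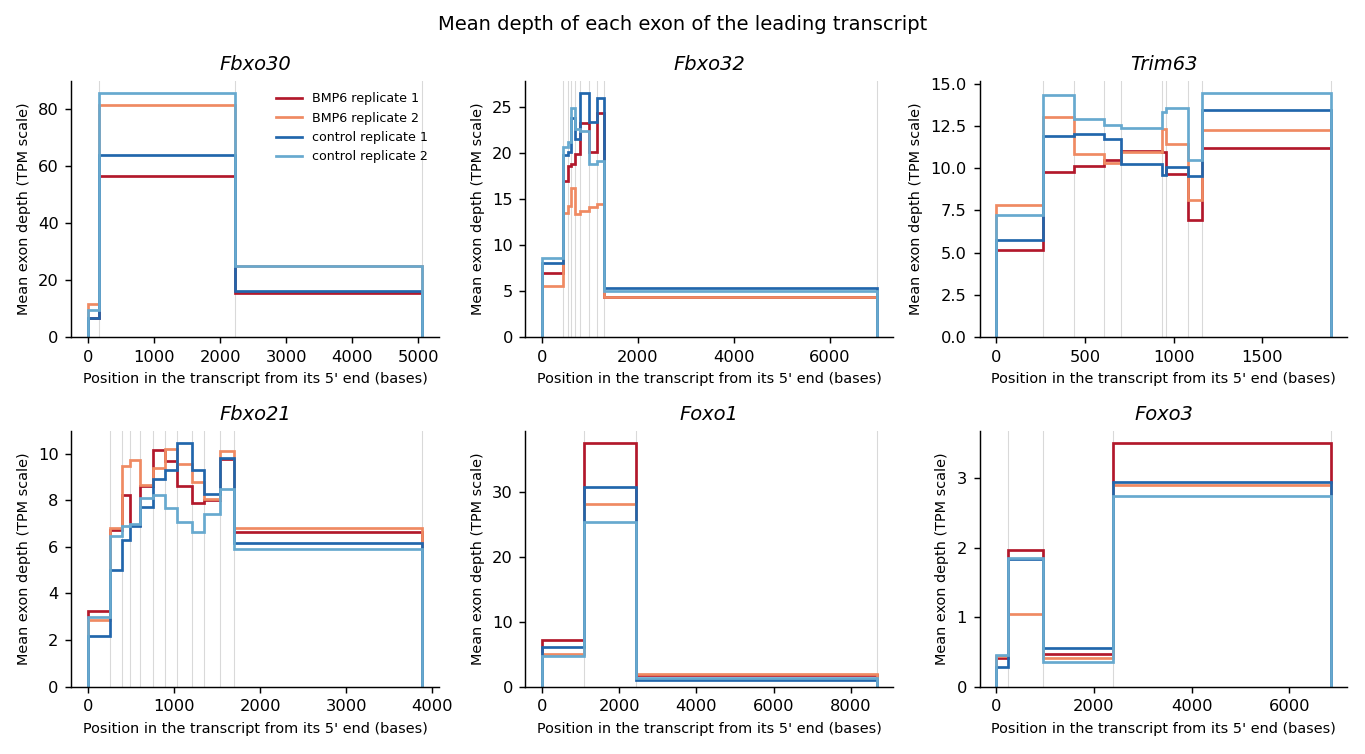
Mean depth of each exon (TPM scale) along the leading transcript, drawn from the 5' end, for 6 genes in 4 libraries, with grey lines at the exon borders. In Foxo1, Fbxo32 and Fbxo30 most coding bases lie in exons far above the long last exon (for Foxo1 exon 2 the 4-library mean is 30.5 against 1.51). Exon 1 of Fbxo32 lies nearer to its last exon, at a mean of 7.30 against 4.78. In Foxo3 the last exon is the highest, and Trim63 and Fbxo21 are more even.

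Depth over coding bases was an alternative chosen after these profiles had been seen. It weighted the mean depth of each whole exon by its coding bases, so the non-coding bases of such exons still enter. Values were summed over the transcripts of a gene. With this measure the order of levels changed. Foxo1 rose from the fifth place to the second with a mean of 22.7, which is 3.45 times its TPM. Fbxo32 rose to the third place with 17.3, or 2.54 times its TPM, and Fbxo30 stayed first with 67.4. Foxo3 fell to 1.46. Over coding bases the range of Foxo1 (18.9 to 27.9) lay above that of Trim63 (9.29 to 12.1), whereas by TPM it lay below it, and it overlapped that of Fbxo32 (12.4 to 20.4). The direction of the BMP6 difference was the same for all 7 tested genes, with a log2 difference of -0.36 for Fbxo32 and 0.20 for Foxo1, as values with no test. Over coding bases the groups of Foxo1 overlapped, at 27.9 and 20.8 after BMP6 and 23.0 and 18.9 in controls.

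The replicate number moved some of these genes more than BMP6 did. Fbxo30 was higher in replicate 2 than in replicate 1, by 1.49 times after BMP6 and by 1.42 times in controls. In the fit with both terms its log2 difference between the replicates was 0.53 (SE 0.07, 95% interval 0.36 to 0.70, limma adjusted p = 0.00444). It was the only 1 of the 7 genes past the test for the replicate, beside 19.8% of all tested entries. Foxo6 was also higher in replicate 2, with 0.37 (SE 0.15, limma adjusted p = 0.138), and Foxo3 and Foxo1 were lower, with -0.28 (SE 0.12, limma adjusted p = 0.156) and -0.22 (SE 0.10, limma adjusted p = 0.192). For 4 of the 7 genes the replicate difference was larger in size than the BMP6 difference. The share of all entries for which this held was not counted, but the same tilt was seen there. Over all tested entries the median size of the log2 difference was 0.135 between replicates and 0.088 for BMP6. Over the 7 genes these medians were 0.224 and 0.111. What differed between the batches is not given in the sources used here.

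**Figure D4:**
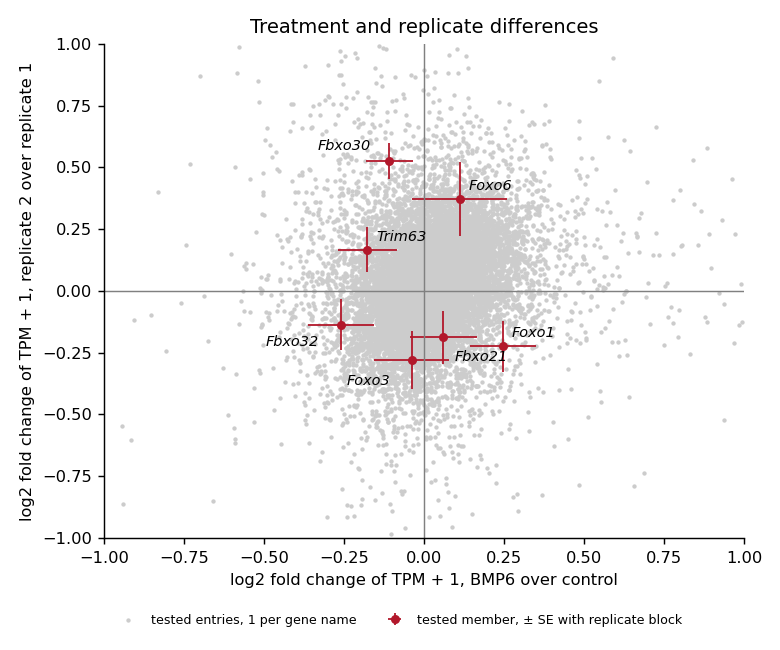
log2 fold change of TPM + 1 between treatments (x axis, BMP6 over control) and between replicates (y axis, replicate 2 over replicate 1). Red points are the 7 tested genes with SE bars from the fit with the replicate block, and grey points are tested entries (112 entries lie outside the axes). Fbxo30 stands at 0.53 on the y axis and at -0.11 on the x axis, while Fbxo32 and Foxo1 lie farthest to the left and right among the red points.

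The genes whose pattern over the 4 libraries was most like that of Fbxo32 were Itgb1bp2, Gm9616 and Rnf122. The measure was the root mean square distance of log2(TPM + 1) after centering each gene, which came to 0.0100, 0.0181 and 0.0195. Within a distance of 0.05 there were 114 entries. Itgb1bp2 was more abundant, at 103 and 91.5 TPM after BMP6 and 119 and 114 TPM in controls, and showed the same order of libraries. For Foxo1 the nearest were Mlf1 (0.0235), Fhl4 (0.0252) and Gm20485 (0.0269), with 26 entries within 0.05. Over 4 libraries such closeness is a description only.

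The other genes of the pathway were read from lists. In the core of the cullin complex and the ubiquitin supply, all 20 genes found were tested and 0 were past the test with or without the block (limma, 0 at an unadjusted p under 0.05). The median log2 fold change was 0.04. The farthest from 0 were Uba3, a subunit of the enzyme that activates Nedd8, with 0.30 (adjusted p = 1.00), and Ube2g1, a ubiquitin-conjugating enzyme, with 0.22 (adjusted p = 1.00).

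Among 22 other ubiquitin ligases and deubiquitinases of muscle, 11 had a value above and 11 below 0, and 0 were past the test with or without the block (limma, 0 at an unadjusted p under 0.05). The farthest were Wwp1 with 0.25 and Mdm2, the ligase of p53, with 0.19 (adjusted p = 1.00 each). The 32 proteasome subunits were split 16 to 16, with a median near 0 and 0 past the test with or without the block (limma, 0 at an unadjusted p under 0.05). Their extremes were Psmd2 with 0.18 and Psmd3 with -0.14 (adjusted p = 1.00 each).

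Of 21 autophagy genes under Foxo control, 0 were past the test (limma, 0 at an unadjusted p under 0.05), and 1 was lower with the replicate block. This was Ctsl, the lysosomal protease cathepsin L, at 102 and 55.6 TPM after BMP6 and 124 and 105 TPM in controls (log2 fold change -0.59, adjusted p = 1.00 in limma without and 0.0769 with the block). BMP6 replicate 2 was its low library. Ulk1, the kinase that starts autophagy, was at -0.20 (adjusted p = 1.00).

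Of 26 tested genes among other Foxo targets, 0 were past the test without the block (limma, 4 higher and 0 lower at an unadjusted p under 0.05), and 2 were higher with it. Gadd45b, a stress gene that is also a known target of TGF-beta family signals, was at 87.3 and 68.6 TPM after BMP6 and at 40.1 and 38.0 TPM in controls. Its log2 fold change was 0.97 (limma, adjusted p = 0.139 without and 0.000555 with the block). Gadd45a, which takes part in muscle wasting, was at 146 and 141 TPM against 106 and 113 TPM, a log2 fold change of 0.39 (limma, adjusted p = 0.637 without and 0.0284 with the block). For both genes the groups did not overlap. Pdk4, a brake on glucose oxidation and a textbook Foxo target, had 0.42 (adjusted p = 1.00 in limma without and 0.1496 with the block).

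Upstream of Foxo, 28 genes of the PI3K, Akt and mTOR pathway and of Foxo regulation were tested, and 0 were past the test without the block (limma, 2 higher and 0 lower at an unadjusted p under 0.05). With it 1 was higher, Sgk1, a kinase that like Akt phosphorylates Foxo factors. It was at 41.1 and 55.6 TPM after BMP6 and at 33.2 and 37.7 TPM in controls, a log2 fold change of 0.42 (limma, adjusted p = 1.00 without and 0.0645 with the block). Akt1 had a value of -0.70 (adjusted p = 1.00 without and 0.237 with the block in limma), which rested on BMP6 replicate 1, at 84.8 TPM against 212 to 254 TPM in the other 3 libraries.

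Of 13 tested inputs from glucocorticoids and inflammation, 1 was past the test (limma). It was Nfkbia, which encodes the inhibitor that holds NF-kappa-B in the cytoplasm, at 90.4 and 71.9 TPM after BMP6 and 34.4 and 35.6 TPM in controls (log2 fold change 1.18, limma adjusted p = 0.0628). With the block a second gene was higher, Tnfrsf12a, the receptor of the wasting cytokine TWEAK, with 0.36 (limma, adjusted p = 0.637 without and 0.0196 with the block). Over all these lists together, 1 of 162 tested genes was past the test without the block. With it 5 were higher and 1 was lower, or 3.70% in all, beside the 1.64% of all entries given above. The lists were chosen with earlier results of these data known, so these shares are no independent comparison.

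**Figure D5:**
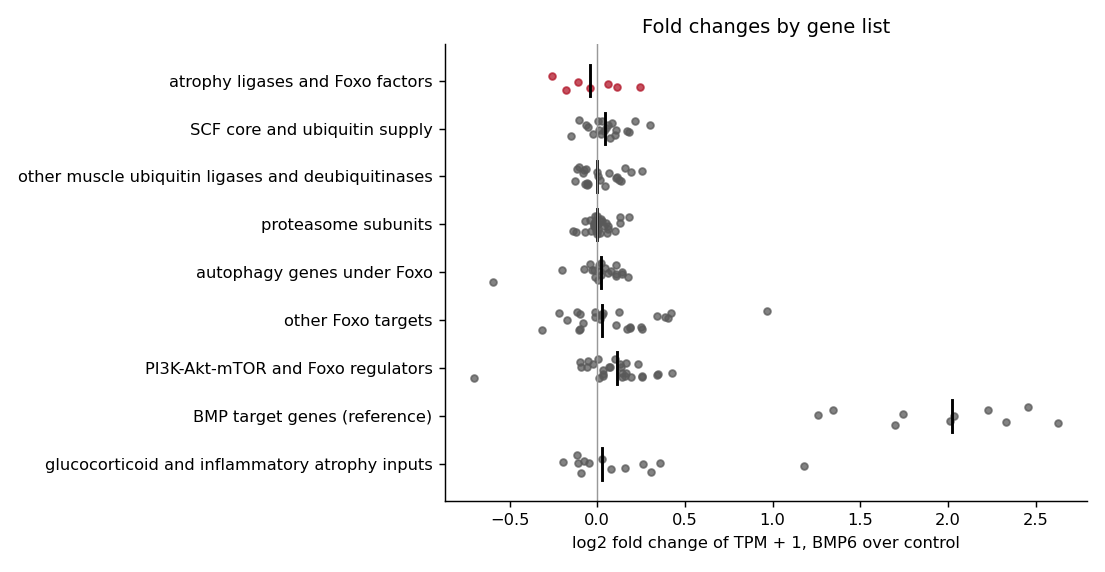
log2 fold change of TPM + 1 (BMP6 over control) of each tested gene (points) by list, with the median of a list as a black bar and the 7 tested ligases and Foxo factors in red. The red points lie between -0.26 and 0.25, the medians of the pathway lists lie near 0, and the BMP target genes all lie above 1 with a median of 2.02.

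Reads shared with other genes were looked for by aligning the transcripts of the 9 genes to all annotated transcripts. Fbxo32 overlaps the non-coding Gm15943 on the opposite strand, and Foxo1 overlaps the non-coding Gm20402 in the same way. The libraries do not keep the strand, so reads there cannot be assigned. Neither partner reached the mean of 1 TPM, but their levels rest on the same reads without strand. On the same strand Foxo1 overlaps Gm38034, which also stayed below that mean, and Foxo3 overlaps Gm65902 and Gm66059, whose levels were not analysed here. Foxo1 shares a short stretch with several tested genes. With Tmem243 it is 128 bases at 96.1% identity, between bases 8405 and 8532 of the Foxo1 transcript, and with Tsc1 it is 101 bases at 95.05% identity. The stretch lies inside the last exon, which starts at base 2440. No other of the 9 genes had a copy of at least 100 bases and 95% identity in a tested gene.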

How the data were processed

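Libraries of polyA RNA were unstranded and amplified (Smart-seq 2), without molecular identifiers. According to the submitters' processing notes and the study's methods, the authors aligned reads with STAR 2.7.11a to GRCm39 and quantified each library with StringTie 2.2.1 against a merged annotation. The authors deposited TPM per gene, FPKM per gene and, as signal, unscaled coverage per transcript and exon. Other attributes of the deposited annotation files, such as exon positions, were used as given. A gene's TPM is averaged over the annotated transcript, so a long exon with few reads lowers it.

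Read numbers were rebuilt as coverage times length over a read length of 100 bases. They came to 108 to 112 in units of 1000000 and are not counts of molecules. The test was limma 3.58.1 in R 4.3.3 (lmFit, eBayes with trend, two-sided) on log2(TPM + 1), without a block, over the 13128 entries that averaged at least 1 TPM, with Benjamini-Hochberg adjustment and a threshold of 0.1. The scale understates changes of low genes. For the count over all genes, a fold of at least 2 and a proper gene name were also required. Per the labels a replicate number is a batch, so same-numbered libraries are paired. Their deviations from the group means correlated at 0.563 across genes. The replicate block is an alternative. Steps were checked on simulated data. P-values measure the spread between these 4 libraries.

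The 9 genes, the lists and the markers were chosen with earlier results of these data known. All 9 genes are named, with list genes past the test with or without the block, the 2 farthest from 0 in each list, and the 3 nearest patterns to the ligase and the factor that moved most. Trim54, Trim55 and Fbxo25 are named as relatives. Coding bases, exons and copies came from GENCODE M39 on GRCm39, with BLAST 2.17.0 for copies. Alternatives changed the pseudocount, filter, scaling, unit, variance model, model, libraries and threshold.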

Additional observations from a re-analysis of the deposited data

Results flagged for a closer look

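Groups of 2 libraries were not tested for a library far from the rest. The depth of the last exon of Foxo1, which was read beside the gene's TPM, stood above its level in the controls. The lowest BMP6 library was 1.34 times the highest control library, on depths of 1.80 and 1.92 after BMP6 and 0.992 and 1.34 in controls. It was the only exon of the 9 genes with a depth of at least 1 in both BMP6 libraries and a ratio above 1.2, a limit chosen after the data had been seen. This ratio covers only exons that were higher after BMP6. In the other direction, exon 4 of Fbxo32 had depths of 18.8 and 16.1 after BMP6 and 23.8 and 24.9 in controls. The last exon of Foxo1 has no coding bases and shares a stretch of sequence with several tested genes. The part of those genes in its depth was not tested.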

How the results depend on the processing

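The count of ligases and Foxo factors past the test stayed at 0 under every alternative that was run, with 9 of them tested when no filter was used, 5 under the stricter filter and 7 otherwise. With the replicate block, which pairs same-numbered libraries, it was 0 of 7. By the adjusted p alone, 0.244% of all tested entries passed without the block and 1.64% with it. The count over all tested genes, which also required a fold of at least 2 and a proper gene name, moved from 24 to 37. That count was 62 in voom on rebuilt reads with the replicate block, 15 with a pseudocount of 5, 1 without a filter on low values, 15 with a mean TPM of at least 5, 12 in eBayes without trend and 11 at an adjusted p under 0.05. It ranged from 18 to 34 without 1 library. The cause of these shifts was not tested. The count of genes past the test between replicates was 1, moved to 0 without the filter and to 3 in voom with the replicate block, where Foxo1 and Foxo6 joined Fbxo30. The share over all entries under these alternatives is not given here.

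Fbxo32 and Trim63 stayed below 0 and Foxo1 above 0 under all 15 alternatives each, but many of these could not turn the sign. The replicate block on TPM, the filters and eBayes without trend leave the log2 fold change as it is. The TPM groups of these genes did not overlap, so leaving out 1 library could not turn it either. Across the tested alternatives Fbxo32 ranged from -0.35 to -0.17, with adjusted p from 0.183 to 1.00, Trim63 from -0.26 to -0.09, with adjusted p from 0.466 to 1.00, and Foxo1 from 0.10 to 0.39, with adjusted p from 0.231 to 1.00. Foxo3 turned to 0.059 in voom without and 0.064 with the replicate block, and ranged from -0.18 to 0.10 when 1 library was left out, with 0.10 without BMP6 replicate 2 (0.095) and without control replicate 1 (0.105). Fbxo30 ranged from -0.39 to 0.17, with 0.17 without BMP6 replicate 1 and 0.14 without control replicate 2, Fbxo21 from -0.11 (without control replicate 2) to 0.23, and Foxo6 from -0.15 (without BMP6 replicate 2) to 0.37. The block changed no other call of the 9 genes. In these leave-outs the lone library was assumed to vary like the other group. Summing TPM over transcripts returned the same value for all 18 group means and is no separate check. Depth over coding bases moved 11 of 18 by more than 1 SD. Fbxo40 and Foxo4, at 28.8 to 75.6 rebuilt reads per library, and levels near 1 TPM are limited by depth.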
